A study of Homo sapiens with 6 samples.

Results

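The genes described here are 10 regulators and targets of YAP and TAZ, the transcriptional co-activators at the end of the Hippo pathway. They were chosen by name as YAP1, WWTR1 (the gene of TAZ), TEAD1, TEAD4, LATS2, AMOTL2, AJUBA, ANKRD1, CYR61 and CTGF, of which the last 2 are written CCN1 and CCN2 in the deposited table. All 10 were found among its 27605 genes. RNA was sequenced from cells labelled HepG2, a human liver cancer cell line, infected with lentivirus. In 3 libraries, shNC, the virus carried a control hairpin and the genotype was given as WT, and in the 3 others, shARHGEF2, the hairpin targeted ARHGEF2. All 6 libraries came from cells grown in DMEM with fetal bovine serum, with no drug treatment named. The study describes the knockdown as stable, and the sources used here do not say whether the 3 libraries of a group came from separate infections or whether the shARHGEF2 libraries share 1 hairpin. P-values therefore measure the spread between these libraries, which may be technical.

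In the Hippo pathway, the kinases MST1 and MST2 activate LATS1 and LATS2, which phosphorylate YAP and TAZ and keep them out of the nucleus. When LATS activity is low, YAP and TAZ enter the nucleus, bind the TEAD transcription factors and switch on genes for growth, matrix and cytoskeletal functions. Actin tension is a known input to this switch, and ARHGEF2 encodes a guanine nucleotide exchange factor. YAP activity is best known in liver for its part in organ size and in liver cancer. The comparison of shARHGEF2 with shNC asks which of these genes differed in mRNA level when ARHGEF2 was reduced, and mRNA levels do not show where the YAP and TAZ proteins were in the cell.

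TEAD proteins bind a short DNA element, and the members' promoters were searched for it. RefSeq promoter windows (GRCh38.p14, 250 bases before to 50 bases after a gene start) were found for 7 of the 10 members, and CYR61, TEAD1 and TEAD4 had no entry. The windows were searched on both strands for GGAATG, the core of the TEAD element, and for TGANTCA, the AP-1 element, which do not overlap each other in any of these windows. Below are the 250 bases before the start, 5′ to 3′ on the strand of the gene, of the canonical target CTGF, of the target ANKRD1 and of YAP1 itself, shown because these genes hold the most matches or carry the lower values described below. Capitals mark the TEAD element.
CTGF: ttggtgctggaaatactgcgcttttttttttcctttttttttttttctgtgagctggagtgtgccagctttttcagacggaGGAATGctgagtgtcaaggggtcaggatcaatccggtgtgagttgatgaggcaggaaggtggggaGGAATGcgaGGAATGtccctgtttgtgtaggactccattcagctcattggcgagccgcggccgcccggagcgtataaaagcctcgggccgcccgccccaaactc
ANKRD1: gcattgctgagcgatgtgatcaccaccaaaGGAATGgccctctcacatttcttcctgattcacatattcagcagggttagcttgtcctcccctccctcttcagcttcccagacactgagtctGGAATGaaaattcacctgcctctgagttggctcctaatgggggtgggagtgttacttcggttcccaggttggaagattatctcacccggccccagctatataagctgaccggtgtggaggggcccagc
YAP1: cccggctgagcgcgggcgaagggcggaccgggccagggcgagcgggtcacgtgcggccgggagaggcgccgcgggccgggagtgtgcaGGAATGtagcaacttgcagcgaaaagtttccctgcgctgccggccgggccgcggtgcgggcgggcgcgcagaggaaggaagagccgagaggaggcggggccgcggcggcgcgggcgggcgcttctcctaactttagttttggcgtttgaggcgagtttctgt

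The window of CTGF lies at chr6:131951323-131951622 on the minus strand, that of ANKRD1 at chr10:90921038-90921337 on the minus strand and that of YAP1 at chr11:102110197-102110496 on the plus strand. CTGF held 3 TEAD elements, beginning 169, 104 and 95 bases before the gene start. ANKRD1 held 2, beginning 220 and 128 bases before it, and 1 match to the loose AP-1 pattern, TGATTCA, beginning 195 bases before it. YAP1 held 1, beginning 162 bases before its start. LATS2 held 1 element, after its start, and 1 of the 2 windows each of AMOTL2 and AJUBA held 1. Neither of the 2 windows of WWTR1 held any. Of all 35116 promoter windows of this length, 14.0% held at least 1 TEAD element, 1.37% at least 2 and 0.128% at least 3, and 7.71% matched the loose AP-1 pattern. These matches describe the letters of the windows and do not show binding in these cells.

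**Figure D1:**
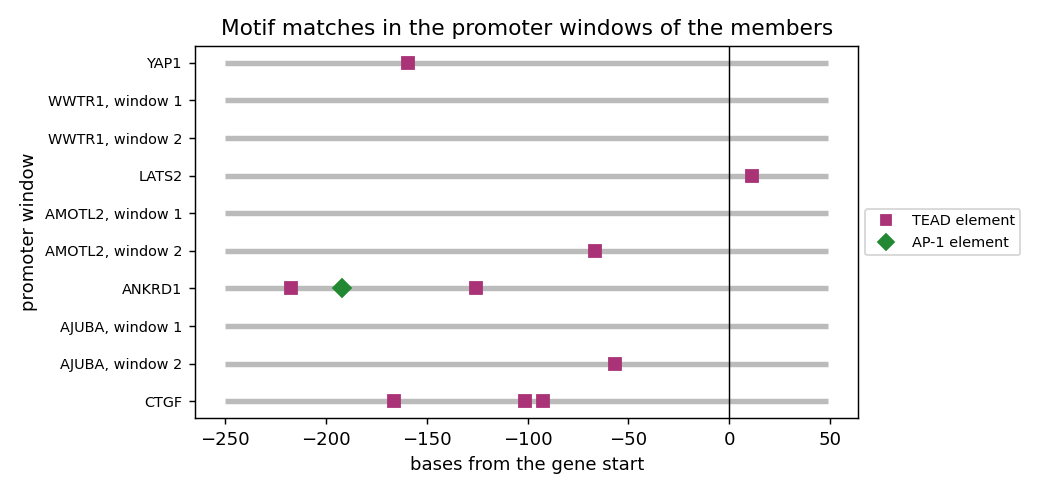
Each grey line is 1 promoter window of a member, from 250 bases before to 49 after the first base of the gene, which is at 0 on the x axis. Squares mark TEAD elements and diamonds matches to the loose AP-1 pattern TGANTCA on either strand, and CTGF has 3 squares and ANKRD1 has 2.

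Values are FPKM as the authors deposited them, that is fragments scaled to transcript length and to the mapped fragments of a library. Comparisons of level between genes are approximate, as this scaling does not remove effects of GC content. No read counts were used. The spacing of the lowest FPKM values gave a rough depth of 20.25 (lowest) to 23.28 (highest) M read pairs a library, but between 36.7% and 39.5% of these low values lay within 0.1 of a whole pair, where even spacing gives 20%. The depth was sought only within a preset range, and the same values gave both the depth and this share. The depths are therefore approximate and entered no test. The groups were compared with limma on log2(FPKM + 1). Of the 27605 genes, 12291 averaged 0.5 FPKM or more and were tested, with p-values adjusted over all of them by the Benjamini-Hochberg method. A difference on this scale understates the change in FPKM, most of all for genes near or under 1 FPKM. The target of the hairpin was checked first: ARHGEF2 had 13.03, 14.4 and 13.9 FPKM in shNC and 4.25, 4.004 and 4.82 FPKM in shARHGEF2 libraries, and it fell by 1.47 on the log2 scale (adjusted p = 0.00244 in limma). Of 15 markers of hepatocytes and HepG2 cells, 8 had a row in the table and VTN alone reached 1 FPKM in every library. AFP reached at most 0.0703 FPKM and HNF4A at most 0.0956 FPKM, so the libraries did not carry the defining markers of the labelled cell type. Of the epithelial markers, KRT8, KRT18 and KRT19 were abundant while EPCAM and CDH1 stayed under 0.06 FPKM. The summed levels of the epithelial, squamous and fibroblast lists overlapped between the groups. KRT17 made up nearly all of the squamous sum, and LUM made up most of the fibroblast sum. COL1A1, of the fibroblast list, averaged 6.37 FPKM in shNC and 8.66 FPKM in shARHGEF2 libraries with no overlap, while the other fibroblast markers overlapped. The summed hepatocyte list, nearly all of it VTN, was 5.92 to 6.24 FPKM in shNC and 6.70 to 7.62 FPKM in shARHGEF2 libraries. The endothelial list, nearly all of it PECAM1, was at 0.561 to 0.640 FPKM in shNC and 0.775 to 0.866 FPKM in shARHGEF2 libraries. The leukocyte list was under 0.3 FPKM in every library. The part of these lists in the values below was not tested.

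None of the members passed the test. Of the 9 members that reached this average, 0 had an adjusted p under 0.05 in limma, where 0.277% of all genes tested did (0.195% higher and 0.0814% lower in shARHGEF2). At an unadjusted p under 0.05 there were 2, YAP1 and CYR61, both with lower values in shARHGEF2 libraries. By unadjusted p, 5.55% of all genes tested were lower. The 10th member, ANKRD1, was too low to be tested. The log2 differences of the 9 lay above 0 for 5 and below 0 for 4, with a median of 0.02, against -0.00 over all genes tested. In 3 of the 9, YAP1, AJUBA and CYR61, the shARHGEF2 values were all under the lowest shNC value, and 9.17% of all genes tested showed this. The groups of ANKRD1 did not overlap either, with the lower values in shARHGEF2. It was outside that background, and no share was computed for genes this low. The members were chosen with earlier results of these data known, so setting their shares beside those of all genes is no test of them. In bulk RNA, fewer cells that express a gene and less RNA per cell cannot be told apart.

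**Figure D2:**
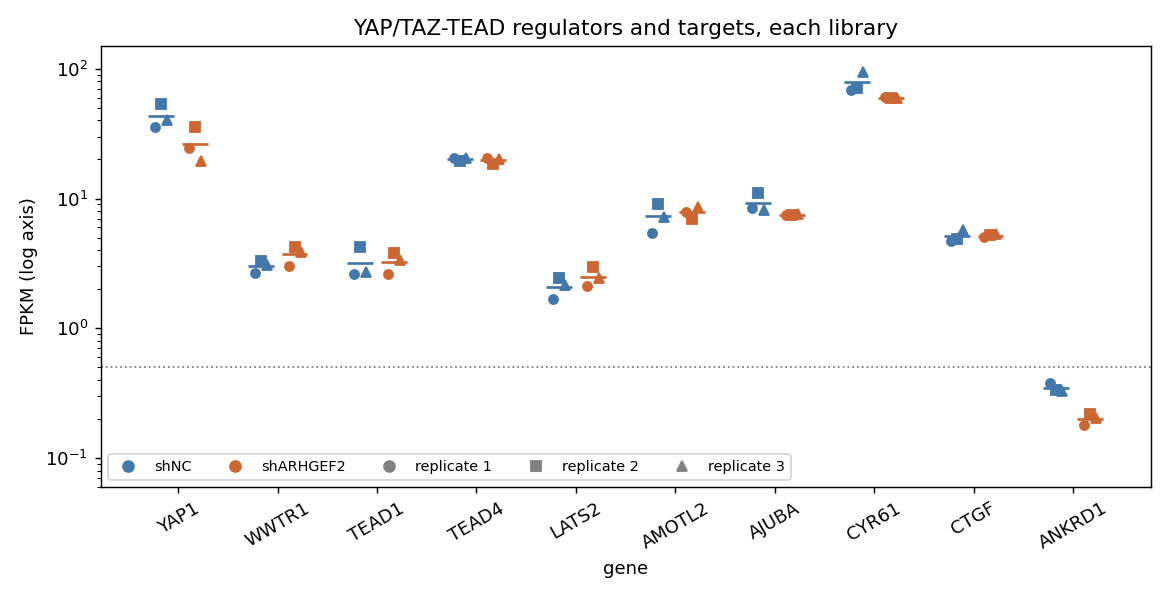
FPKM (log axis) of the 10 members in each library, in blue for shNC and orange for shARHGEF2, with a symbol for each replicate number and a line at the group mean. The dotted line is at 0.5 FPKM, the mean needed for the test, and ANKRD1 lies under it, while the groups are apart in YAP1, AJUBA, CYR61 and ANKRD1.

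The members spanned over 2 orders of magnitude. In shNC libraries CYR61 was the highest at 78.4 ± 14.6 FPKM (SD, n = 3), followed by YAP1 at 43.3 ± 9.43 and TEAD4 at 20.2 ± 0.669, and the ranges of these 3 were separate. AJUBA, AMOTL2 and CTGF came next, and each overlapped with its neighbour among them, while CTGF stood clear of the next gene, TEAD1. TEAD1 and WWTR1 overlapped, and LATS2 and then ANKRD1 were lower than both with no overlap. In shARHGEF2 libraries CYR61 remained the highest, but YAP1 at 26.4 ± 8.17 FPKM (SD, n = 3) now overlapped with TEAD4 at 19.7 ± 0.987. WWTR1, TEAD1 and LATS2 also overlapped there, each with its neighbour. The order of the other genes differed from shNC only between neighbours that overlapped.

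YAP1 and WWTR1 encode the co-activators themselves. YAP1 (ENSG00000137693, chromosome 11 of GRCh38 from 102110461 to 102233423) had 35.8, 53.9 and 40.2 FPKM in shNC replicates 1 to 3 and 24.4, 35.4 and 19.4 FPKM in shARHGEF2 replicates 1 to 3. All shARHGEF2 libraries were below all shNC libraries, but the highest of the former and the lowest of the latter nearly met. The mean in shARHGEF2 was 61.0% of that in shNC, and the log2 difference was -0.71 (95% interval -1.26 to -0.17, adjusted p = 0.254 in limma). It ranked 838th by p among the genes tested. An exact permutation test gave p = 0.1 (two-sided), the smallest p that 3 libraries against 3 allow. The fold of FPKM + 1 that this interval leaves possible runs from 0.418 to 0.890.

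In both groups replicate 2 held the highest YAP1 value. Replicate 2 was also the highest library for 48.6% of all genes tested in shNC and for 41.6% in shARHGEF2. The log2 levels of these 2 libraries, relative to the mean library, ran against GC content (Spearman's correlation -0.465 and -0.289 across genes, which are not independent), and shARHGEF2 replicate 1 ran with it (0.57). The listed transcripts of YAP1 averaged 47.1% GC, below the median of 51.6% over the genes tested. With this trend removed from each library, a step chosen after the data were seen, the log2 difference of YAP1 was -0.69 (adjusted p = 0.164 in limma). Left-out libraries moved it between -0.94, without shARHGEF2 replicate 2, and -0.52, without shARHGEF2 replicate 3.

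WWTR1 (ENSG00000018408, chromosome 3 of GRCh38 from 149517235 to 149736714) was far lower than YAP1, with 2.66, 3.27 and 3.10 FPKM in shNC and 3.04, 4.21 and 3.88 FPKM in shARHGEF2 libraries. The groups overlapped, and the mean in shARHGEF2 was 123% of that in shNC (log2 difference 0.23, 95% interval -0.08 to 0.54, adjusted p = 0.513 in limma). YAP1 and WWTR1 thus stood on opposite sides of 0, and their ratio within each library was computed after these values were seen. A single scaling factor of a library cannot alter this ratio, but a GC trend can, as WWTR1 transcripts averaged 56.5% GC and those of YAP1 47.1%. With the GC trend removed, the log2 differences were -0.69 for YAP1 and 0.20 for WWTR1. YAP1 alone was already apart between the groups, so separation of the ratio is no independent result. YAP1 was 13.5, 16.5 and 12.96 times WWTR1 in shNC libraries and 8.01, 8.41 and 5.02 times WWTR1 in shARHGEF2 libraries. In shNC the ratio was 14.3 ± 1.89 (SD, n = 3), and in shARHGEF2 it was 7.15 ± 1.86 (SD, n = 3), with a wide gap between the groups (exact permutation test, two-sided, p = 0.1, the smallest possible). The mean ratio in shARHGEF2 was 0.499 of that in shNC, and between 0.455 and 0.574 with each library left out in turn. YAP1 made up 92.8% to 94.3% of the summed FPKM of both genes in shNC and 83.4% to 89.4% in shARHGEF2 libraries. In shNC this sum was 46.3 ± 9.70 FPKM (SD, n = 3), and in shARHGEF2 it was 30.1 ± 8.48 FPKM (SD, n = 3), and it overlapped between the groups (two-sided exact permutation test, p = 0.2).

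The TEAD proteins bind DNA and carry YAP and TAZ to their targets. TEAD4 (ENSG00000197905, chromosome 12 of GRCh38 from 2959330 to 3040673) had 20.7, 19.5 and 20.6 FPKM in shNC and 20.5, 18.6 and 20.04 FPKM in shARHGEF2 libraries. These values overlapped, with a log2 difference of -0.04 (95% interval -0.24 to 0.17, adjusted p = 0.904 in limma). The interval leaves folds of FPKM + 1 between 0.845 and 1.12. TEAD1 (ENSG00000187079, chromosome 11 of GRCh38 from 12674591 to 12944483) had 2.62, 4.22 and 2.71 FPKM in shNC and 2.60, 3.79 and 3.34 FPKM in shARHGEF2 libraries. Its log2 difference was 0.03 (95% interval -0.37 to 0.43, adjusted p = 0.969 in limma), and replicate 2 was again the highest in both groups.

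The other family members put these levels in context. TEAD3 had 15.0, 14.5 and 15.0 FPKM in shNC and 11.8, 10.5 and 10.3 FPKM in shARHGEF2 libraries, with no overlap and a narrow spread in shNC. Its log2 difference of -0.42 (95% interval -0.64 to -0.19) did not pass (adjusted p = 0.129 in limma), nor did it in any of the 14 alternatives (adjusted p from 0.0522 to 0.404 in limma). TEAD2 varied widely, from 8.35 to 11.4 FPKM in shNC and from 5.79 to 10.6 FPKM in shARHGEF2 libraries. The 4 TEAD genes summed to 48.5 ± 1.64 FPKM (SD, n = 3) in shNC, and in shARHGEF2 the sum was lower with no overlap, at 42.4 ± 3.47 FPKM (SD, n = 3). Of this sum, TEAD4 made up 39.2% to 44.3% in shNC and 45.0% to 48.0% in shARHGEF2, and TEAD3 made up 29.3% to 32.1% and 23.8% to 27.2%. The sum and both shares were apart between the groups, with p = 0.1 for each, the smallest possible (exact permutation test, two-sided). The FPKM of TEAD4 itself overlapped, so its higher share goes with the lower sum and not with a higher level. TEAD1 was the least abundant, at 5.49% to 9.79% of the sum in any library.

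**Figure D3:**
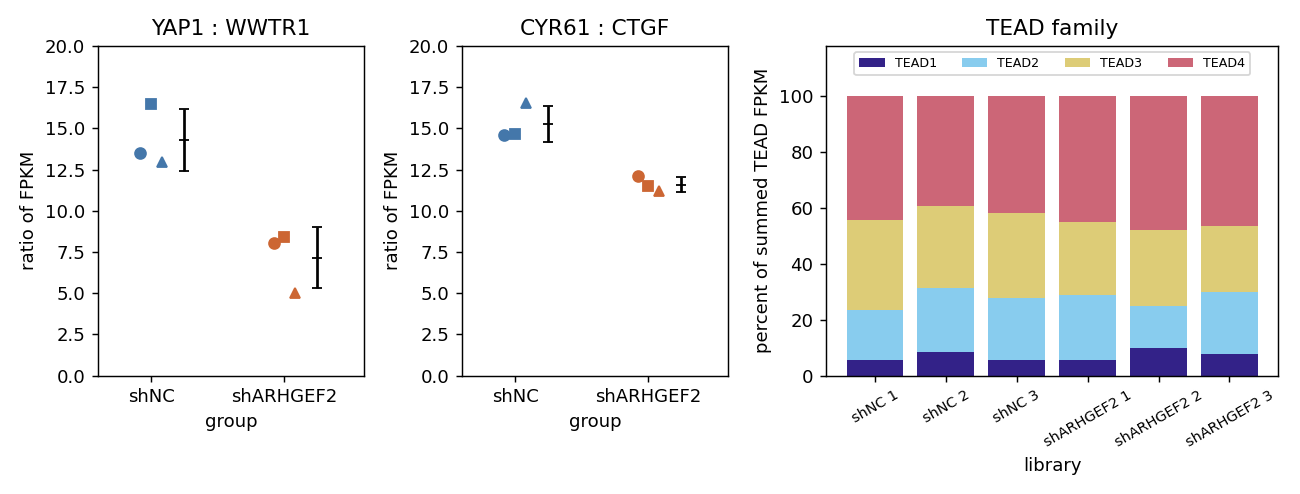
Left and middle, the ratio of YAP1 to WWTR1 and of CYR61 to CTGF (FPKM over FPKM) in each library of shNC and shARHGEF2, with the mean and SD in black. Right, the share of each gene in the summed FPKM of TEAD1 to TEAD4 by library, where TEAD4 takes 39.2% to 44.3% in shNC and 45.0% to 48.0% in shARHGEF2.

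LATS2, AMOTL2 and AJUBA act on the switch itself, and the first 2 are also induced by YAP as negative feedback. LATS2 (ENSG00000150457, chromosome 13 of GRCh38 from 20973032 to 21061547), the kinase, had 1.68, 2.42 and 2.16 FPKM in shNC and 2.12, 2.96 and 2.42 FPKM in shARHGEF2 libraries. The groups overlapped (log2 difference 0.18, 95% interval -0.15 to 0.51, adjusted p = 0.640 in limma). AMOTL2 (ENSG00000114019, chromosome 3 of GRCh38 from 134355874 to 134375479), a junctional angiomotin that binds YAP and holds it in the cytoplasm, had 5.43, 9.14 and 7.24 FPKM in shNC and 7.83, 6.91 and 8.67 FPKM in shARHGEF2 libraries. The shARHGEF2 values lay within the range of shNC (log2 difference 0.11, 95% interval -0.28 to 0.50, adjusted p = 0.843 in limma). AJUBA (ENSG00000129474, chromosome 14 of GRCh38 from 22971174 to 22982642), a LIM protein that restrains LATS kinases, had 8.43, 11.1 and 8.17 FPKM in shNC and 7.48, 7.40 and 7.58 FPKM in shARHGEF2 libraries. The shARHGEF2 values were tightly grouped and below all shNC values, of which replicate 2 was far above the others. Its log2 difference was -0.26 (95% interval -0.55 to 0.03, adjusted p = 0.422 in limma), and it was -0.13 without shNC replicate 2.

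CYR61, CTGF and ANKRD1 are the transcripts most often read as YAP activity, and CYR61 and CTGF encode secreted matricellular proteins of one family. CYR61 (ENSG00000142871, chromosome 1 of GRCh38 from 85580761 to 85583962) had 68.6, 71.3 and 95.2 FPKM in shNC and 60.5, 59.8 and 59.6 FPKM in shARHGEF2 libraries. The shARHGEF2 libraries agreed to within 1 FPKM and lay below all shNC libraries, whose replicate 3 stood well above replicates 1 and 2. The mean in shARHGEF2 was 76.5% of that in shNC (log2 difference -0.37, 95% interval -0.65 to -0.08, adjusted p = 0.257 in limma; exact permutation test, p = 0.1). Without shNC replicate 3 the difference was -0.22 (adjusted p = 0.283 in limma).

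CTGF (ENSG00000118523, chromosome 6 of GRCh38 from 131948176 to 131951373), whose promoter holds the 3 TEAD elements shown above, had 4.71, 4.86 and 5.75 FPKM in shNC and 5.01, 5.21 and 5.32 FPKM in shARHGEF2 libraries. All shARHGEF2 values lay within the shNC range. The log2 difference was 0.02 (95% interval -0.24 to 0.28, adjusted p = 0.970 in limma), and the interval leaves folds of FPKM + 1 between 0.847 and 1.21. Within each library CYR61 was 14.6, 14.7 and 16.5 times CTGF in shNC and 12.1, 11.5 and 11.2 times CTGF in shARHGEF2. These ratios, chosen after the values were seen, were apart between the groups, at 15.3 ± 1.12 (SD, n = 3) and 11.6 ± 0.450 (SD, n = 3) (exact permutation test, two-sided, p = 0.1, the smallest possible). CYR61 alone was already apart, so this separation is no independent result.

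ANKRD1 (ENSG00000148677, chromosome 10 of GRCh38 from 90912096 to 90921276), a nuclear ankyrin-repeat protein of muscle and stressed cells, was the lowest member. It had 0.375, 0.333 and 0.330 FPKM in shNC and 0.179, 0.220 and 0.203 FPKM in shARHGEF2 libraries. On its 1 listed transcript of 1979 nt, with the approximate depths above, these values stand for about 13.2 to 17.3 read pairs a library in shNC and 7.26 to 9.62 in shARHGEF2. The groups did not overlap, and shARHGEF2 was at 58.0% of the shNC mean (two-sided exact permutation test, p = 0.1), but with so few pairs the size of the difference is poorly determined. When genes of any level above 0 were tested, ANKRD1 had a log2 difference of -0.16 (adjusted p = 0.571 in limma). With a pseudocount of 0.1 FPKM the difference of the mean log2 values was -0.57.

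For CYR61 and CTGF the genes with the most similar pattern were sought among tested genes averaging 1 FPKM or more, by Pearson's r of log2(FPKM + 1) over the 6 libraries. The pair closest to CYR61 was MRPS16 (r = 0.986) and DDN (r = 0.980). Closest to CTGF were RAB3D (r = 0.973) and UBQLN4 (r = 0.970). These are descriptions picked from all these genes over 6 libraries that share their scaling, with no test.

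A wider list of 36 Hippo pathway genes, which includes the members upstream of transcription, also held no called gene. Of these, 34 were in the table and 29 were tested, of which 0 passed the adjusted threshold. The log2 difference was above 0 for 12 and below 0 for 17, with a median of -0.06. Of the 29, 2 had an unadjusted p under 0.05 in limma, YAP1 and TEAD3, both lower in shARHGEF2. This share is near the 5.55% of all genes tested that were lower by unadjusted p. The lowest log2 differences among the listed Hippo genes averaging 1 FPKM or more were those of YAP1, TEAD3 and AJUBA, and the highest those of WWTR1, LATS2 and VGLL4. VGLL4, a competitor of YAP for TEAD, had a log2 difference of 0.12 (95% interval -0.15 to 0.40, adjusted p = 0.713 in limma). The groups were apart in 3 of the 29, YAP1, TEAD3 and AJUBA, all with lower values in shARHGEF2, a share near the 9.17% of all genes tested. Among the genes too low to test, LATS1 was at 0.348 to 0.501 FPKM in shNC and 0.429 to 0.598 FPKM in shARHGEF2 libraries, and AMOT was listed at 0 in 5 of the 6 libraries.

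A signature of 22 YAP/TAZ target genes, which shares LATS2, AMOTL2, ANKRD1, CYR61 and CTGF with the members, had 19 tested genes and 0 calls. In limma 1 of the 19 was higher and 6 were lower at an unadjusted p under 0.05, where 8.1% of all genes tested were higher and 5.55% were lower. The groups were apart with lower values in shARHGEF2 in 7 of the 19, CYR61, F3, IGFBP3, FJX1, MYOF, FOXF2 and CCDC80, where 9.17% of all genes tested were. They were apart with higher values in 1, NT5E, where the background is 11.3%. The signature was chosen with earlier results of these data known, so setting its shares beside those of all genes is no test of it. The median log2 difference of the 19 was -0.08, and 11 of them lay below 0, against a median of -0.00 over all genes tested.

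F3, the gene of tissue factor, which starts blood coagulation, had the lowest log2 difference of the signature. It had 15.4, 19.95 and 13.6 FPKM in shNC and 6.44, 7.85 and 8.84 FPKM in shARHGEF2 libraries, with a wide gap between the groups. The log2 difference was -0.98 (95% interval -1.35 to -0.62), just short of the threshold (adjusted p = 0.0504 in limma). It passed under the stricter low-value filter, 1 FPKM in 3 or more libraries (adjusted p = 0.0425), with the GC trend removed (adjusted p = 0.0413) and without shNC replicate 3 (adjusted p = 0.0434, all in limma). Over all alternatives its adjusted p in limma lay between 0.0413 and 0.383.

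IGFBP3, which binds insulin-like growth factors, had 25.8, 29.7 and 24.0 FPKM in shNC and 14.4, 19.0 and 16.5 FPKM in shARHGEF2 libraries (log2 difference -0.64, 95% interval -0.93 to -0.36, adjusted p = 0.105 in limma). FJX1, a secreted relative of a Drosophila planar polarity protein, had 3.54, 4.30 and 3.46 FPKM in shNC and 2.56, 2.03 and 2.69 FPKM in shARHGEF2 libraries (log2 difference -0.48, adjusted p = 0.180 in limma). At the other end NT5E, the ectoenzyme CD73 that makes adenosine, had 7.67, 9.60 and 9.88 FPKM in shNC and 10.1, 13.8 and 11.4 FPKM in shARHGEF2 libraries (log2 difference 0.34, adjusted p = 0.341 in limma). GADD45A, a growth arrest gene induced by DNA damage, overlapped between the groups (log2 difference 0.29, adjusted p = 0.381 in limma).

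**Figure D4:**
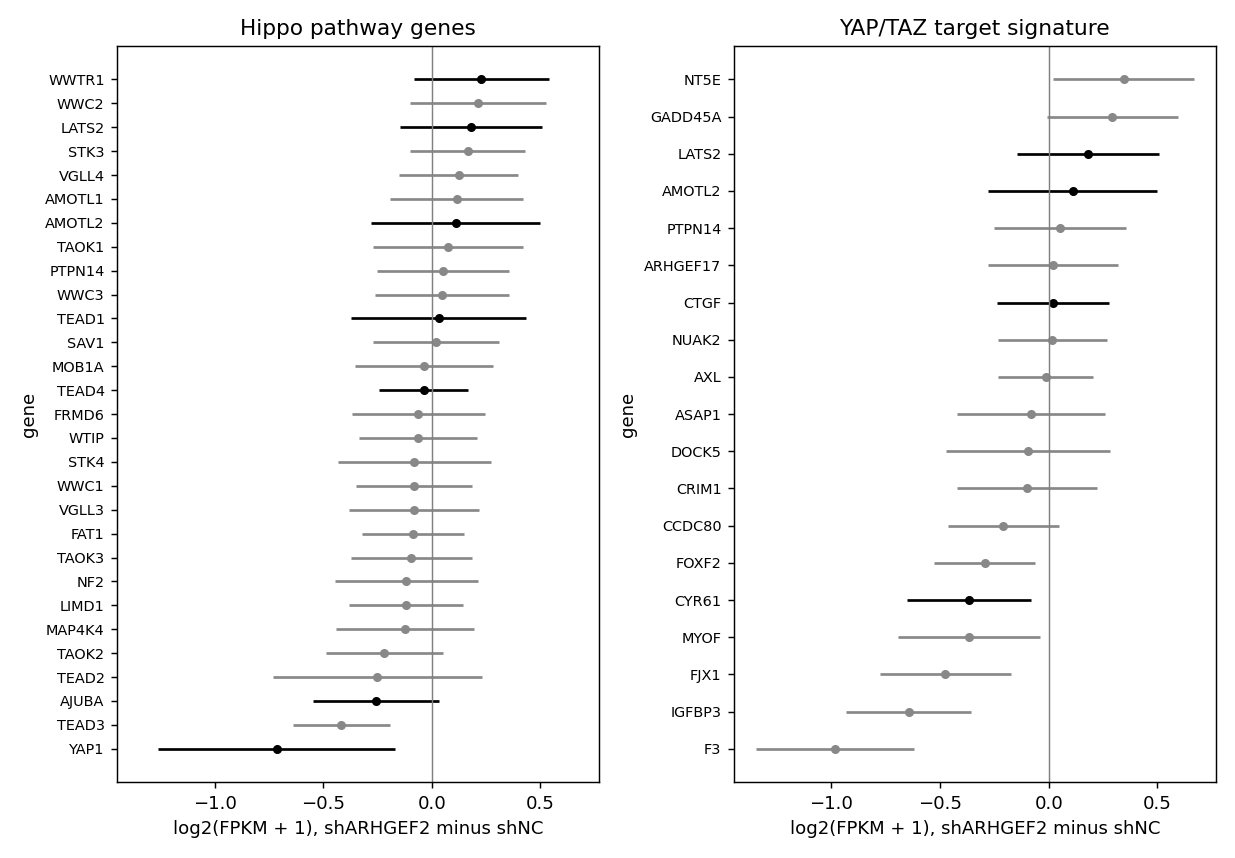
Difference of mean log2(FPKM + 1), shARHGEF2 minus shNC, with its 95% interval from limma, for the tested genes of the Hippo pathway list (left, 29 genes) and of the target signature (right, 19 genes). Members are black and other genes grey, and YAP1 at -0.71 and F3 at -0.98 lie lowest.

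**Figure D5:**
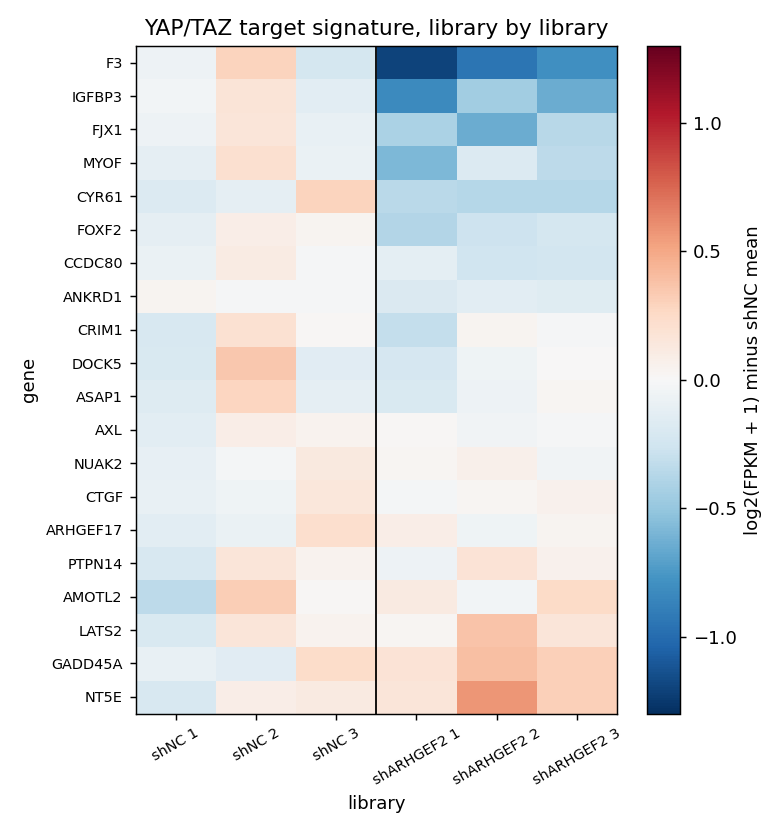
Colour gives log2(FPKM + 1) minus the mean of the shNC libraries for the 19 tested signature genes and ANKRD1, with 1 column per library and genes ordered by the mean in shARHGEF2. F3 and IGFBP3 are blue in all 3 shARHGEF2 columns, and NT5E is red in all 3.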

How the data were processed

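Poly(A) RNA was made into dUTP-stranded, paired-end libraries with molecular identifiers. The authors deposited 1 table with an FPKM value for each gene and library, and beside it their own fold changes and p-values, which were not used. The submitters' processing notes name cutadapt 1.9, HISAT2 2.0.4, UMI-tools, StringTie 1.3.4d, DESeq2, edgeR and hg19, without saying which step each was used for. The table holds no coordinates, and gene positions were taken by Ensembl ID from GENCODE 29 (GRCh38). GC content came from the 94.7% of listed transcripts found there. Whether strand was used in counting is not given in the sources used here.

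The FPKM values were not scaled further. Genes averaging 0.5 FPKM or more were fitted on log2(FPKM + 1) in R 4.3.3 using limma 3.58.1, whose variance moderation was trended on expression and robust (statmod 1.5.0). The Benjamini-Hochberg adjustment ran over all genes fitted, and a call needed an adjusted p under 0.05. Exact permutation tests used SciPy 1.17.1. The method was tested on simulated data. Residuals of libraries with the same number correlated at 0.184, 0.159 and -0.105, and the main fit did not take the numbers as pairs. The correlations with GC content had the same sign in both groups for replicate 1 (0.199 and 0.57) and replicate 2 (-0.465 and -0.289). Some structure may therefore be shared by number, and the replicate block was fitted as an alternative. The genes named from the lists are those called and the 3 highest and 3 lowest log2 differences averaging 1 FPKM or more, and for CYR61 and CTGF the 2 genes most like each. Other genes were chosen after their values were seen. The members and lists were chosen with earlier results of these data known. The alternatives are given with the limits, and the GC trend (loess, span 0.3) and the ratios were added after the data were seen.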

Additional observations from a re-analysis of the deposited data

How the results depend on the processing

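The members called numbered 0 under each of the 14 alternatives, as did the wider Hippo genes. Of the target signature, 1 gene, F3, was called under the filter of 1 FPKM in 3 or more libraries, with the GC trend removed, and without shNC replicate 3 (between 0 and 1 with each library left out). Over all genes, 34 were called, against 0 with the replicate block and 1 with no filter beyond a value above 0. The number called was 54 with at least 1 FPKM in 3 or more libraries, 39 with the pseudocount of 0.1 FPKM and 47 with the GC trend removed. It was 19 with quantile normalization, 7 with median scaling and 7 without trend or robust variances. It was 13, 14 and 102 without shNC replicates 1 to 3 and 12, 15 and 6 without shARHGEF2 replicates 1 to 3. ARHGEF2 kept its direction in every alternative but did not pass with the replicate block (adjusted p = 0.0716 in limma) or with no filter (adjusted p = 0.0701 in limma). YAP1 was lower in all 14 (adjusted p from 0.129 to 0.569 in limma), as was CYR61 (0.164 to 0.593). With the replicate block, YAP1 had an adjusted p = 0.167 in limma, and the block added no call. Its unadjusted p in limma was 0.00127 with the block and 0.0173 in the main fit. Differences near 0 turned with 1 library left out: TEAD1 ranged from -0.062 to 0.20, TEAD4 from -0.065 to 0.0013, AMOTL2 from -0.059 to 0.27 and CTGF from -0.027 to 0.094. ANKRD1, under the low-value filter, had a value only with the pseudocount of 0.1 FPKM, with no filter and with libraries left out. ANKRD1 rests on about 7.26 to 17.3 read pairs a library, and the precision of its difference is limited accordingly.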
